A study of Mus musculus with 6 samples.

Results

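The set described here holds 10 genes tied to the fetal liver, read in the liver of 14-day-old mice: Afp, its repressors Zbtb20 and Zhx2, and Gpc3, Cd24a, Igdcc4, Igf2bp3, Bex1, Bex2 and Adgrg2. They were chosen from differences between Mir137-/- and Mir137+/+ on these same arrays together with what is known of the genes, so every difference given for them is a description and carries no test. All probe sets whose platform annotation names exactly 1 gene, that gene being one of the 10, were taken, which gave 33 of 45101 probe sets (10 of 18193 genes). All 10 genes had at least 1: Zbtb20 had 9, Igf2bp3 6, Afp 5, Igdcc4 4, Cd24a 3 and Adgrg2 2, and Zhx2, Gpc3, Bex1 and Bex2 had 1 each.

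Alpha-fetoprotein, the product of Afp, is the main plasma protein of the fetus and is made by fetal liver and yolk sac until its gene is shut down after birth, while its neighbour Alb stays on. In mouse liver the zinc finger protein Zbtb20 and the zinc finger and homeobox protein Zhx2 are known to hold Afp down, and Zhx2 is also known to act on Gpc3. Several of the other genes are on in fetal liver or its progenitor cells, low in adult liver, and on again in some liver tumours, which is why such genes are called oncofetal.

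Mir137-/- mice lacked miR-137 in every tissue. Cre recombinase had removed the part of the Mir137 gene that encodes miR-137 (exons 2 and 3) in E14 embryonic stem cells, whose allele was bred to C57BL/6, and the methods state that most experiments used offspring of heterozygous intercrosses. Mir137+/+ mice carried the unmodified gene. Each group had 3 arrays, each from the liver of 1 untreated mouse killed at postnatal day 14, and the methods name males. No probe set was annotated to Mir137, so its loss could not be read here, and DNA of the stem cell strain that flanks the deleted allele cannot be told apart from the loss of miR-137.

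Sequences are shown for the microRNA that was removed and for the promoters of a few of the genes that the values turn on. They come from RefSeq tables of mouse build GRCm38.p6, in which the window runs 250 bases before and 50 bases after an annotated gene start. The tables held a window for 8 of the 10 genes (not Zhx2 and Cd24a). Mature miR-137 lies at chr3:118433901-118433923 on the plus strand, and its seed, bases 2 to 8, is in capitals.
mmu-miR-137-3p: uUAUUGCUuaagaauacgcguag

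The Afp window (chr5:90490464-90490763, plus strand) is shown because Afp gives the set its name, and the Zbtb20 window (chr16:43247034-43247333, plus strand) because most probe sets of this repressor read lower. Capitals mark the letters GTTAAT and GTTAAC, forms of the recognition core of the hepatocyte factor HNF1, and TATAAA, the core of a TATA box.
Afp: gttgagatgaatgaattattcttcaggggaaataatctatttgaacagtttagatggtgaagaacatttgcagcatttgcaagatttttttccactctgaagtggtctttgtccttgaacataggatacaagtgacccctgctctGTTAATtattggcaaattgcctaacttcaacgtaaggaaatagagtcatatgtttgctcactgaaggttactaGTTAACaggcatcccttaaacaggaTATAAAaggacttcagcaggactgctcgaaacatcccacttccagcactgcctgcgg
Zbtb20: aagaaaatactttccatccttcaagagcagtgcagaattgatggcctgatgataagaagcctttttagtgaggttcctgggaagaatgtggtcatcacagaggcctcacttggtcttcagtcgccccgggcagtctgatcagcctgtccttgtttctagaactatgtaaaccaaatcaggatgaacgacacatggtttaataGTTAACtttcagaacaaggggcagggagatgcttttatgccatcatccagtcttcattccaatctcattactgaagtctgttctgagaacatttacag

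Each motif was searched on both strands, GTTAAC being its own reverse complement, and no matches overlapped in these windows. The Afp window held all 3, with first letters 105 (GTTAAT), 32 (GTTAAC) and 7 (TATAAA) bases before the annotated start. GTTAAC stood 48 bases before the Zbtb20 start. Of 32851 mouse windows of the same 300 bases, 7.1% held GTTAAT, 3.05% held GTTAAC and 13.6% held TATAAA. Among the other genes with a window, Bex2 held TATAAA on the minus strand, 213 bases before its start, and these letters were not found in the windows of Gpc3, Igdcc4, Igf2bp3, Bex1 and Adgrg2.

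The Igdcc4 window (chr9:65101236-65101535, plus strand) is shown as the contrast in base composition, with each CG pair in capitals.
Igdcc4: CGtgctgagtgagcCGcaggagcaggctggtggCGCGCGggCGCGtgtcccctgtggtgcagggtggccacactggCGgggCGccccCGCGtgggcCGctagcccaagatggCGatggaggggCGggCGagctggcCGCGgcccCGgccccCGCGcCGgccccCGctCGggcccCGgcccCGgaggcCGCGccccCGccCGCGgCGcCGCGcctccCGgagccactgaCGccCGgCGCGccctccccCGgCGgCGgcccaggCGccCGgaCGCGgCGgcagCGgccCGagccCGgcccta

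It held 49 CG pairs, against 3 in the windows of both Afp and Zbtb20. Gpc3 and Adgrg2 had 30 each, Igf2bp3 25, Bex2 12 and Bex1 8, and the median of all windows was 7 (quartiles 3 and 20). G and C together made up 40% of the Afp window and 84.7% of that of Igdcc4.

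The arrays gave log2 levels, so a difference of 1 is a doubling, and all differences are Mir137-/- minus Mir137+/+ with the standard error (SE) of the fit. A probe set counted as called at an adjusted p below 0.05 in limma over all 45037 probe sets together with more than 1.5-fold. The median level was 4.88 to 4.91 on all 6 arrays. The label of liver fitted the markers: 6 hepatocyte genes were measured, Alb among them at 13.71 to 13.74 in Mir137-/- and 13.73 to 13.79 in Mir137+/+, and 0 was called. Some arrays stood apart. The X-inactivation transcript Xist reached 10.91 on Mir137+/+ replicate 2 and 10.81 on replicate 3, while no other array exceeded 4.24. The Y-linked gene Eif2s3y was low on the same arrays, at 2.06 and 2.51, and read 8.46 to 8.62 in Mir137-/- and 8.59 on Mir137+/+ replicate 1. By these transcripts those wild types appear female, which goes against the methods, and sex thus differs in part with genotype. Of 8 sex-linked transcripts measured, 0 was called and 6 had an unadjusted p below 0.05. The list of exocrine pancreas genes lay 2.63 above the Mir137+/+ mean on Mir137-/- replicate 2 and 1.72 above it on Mir137+/+ replicate 2, and at -0.94 to -0.57 on the remaining arrays (0 of 9 called). The skeletal muscle list lay 4.89 above it on Mir137-/- replicate 1 and between -0.04 and 0.17 elsewhere (0 of 12 called). Results without these arrays are given after the genes.

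Of the 33 probe sets, 11 were called higher and 3 lower in Mir137-/- liver. Over all probe sets 1.94% were called higher and 2.58% lower, and since the genes were chosen on this contrast nothing is read from that comparison. The higher ones belonged to Afp (3), Igdcc4 (2), Adgrg2 (2), Gpc3, Bex1, Bex2 and Igf2bp3 (1 each), and the lower ones were the 3 of Cd24a. Neither repressor had a called probe set.

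**Figure D1:**
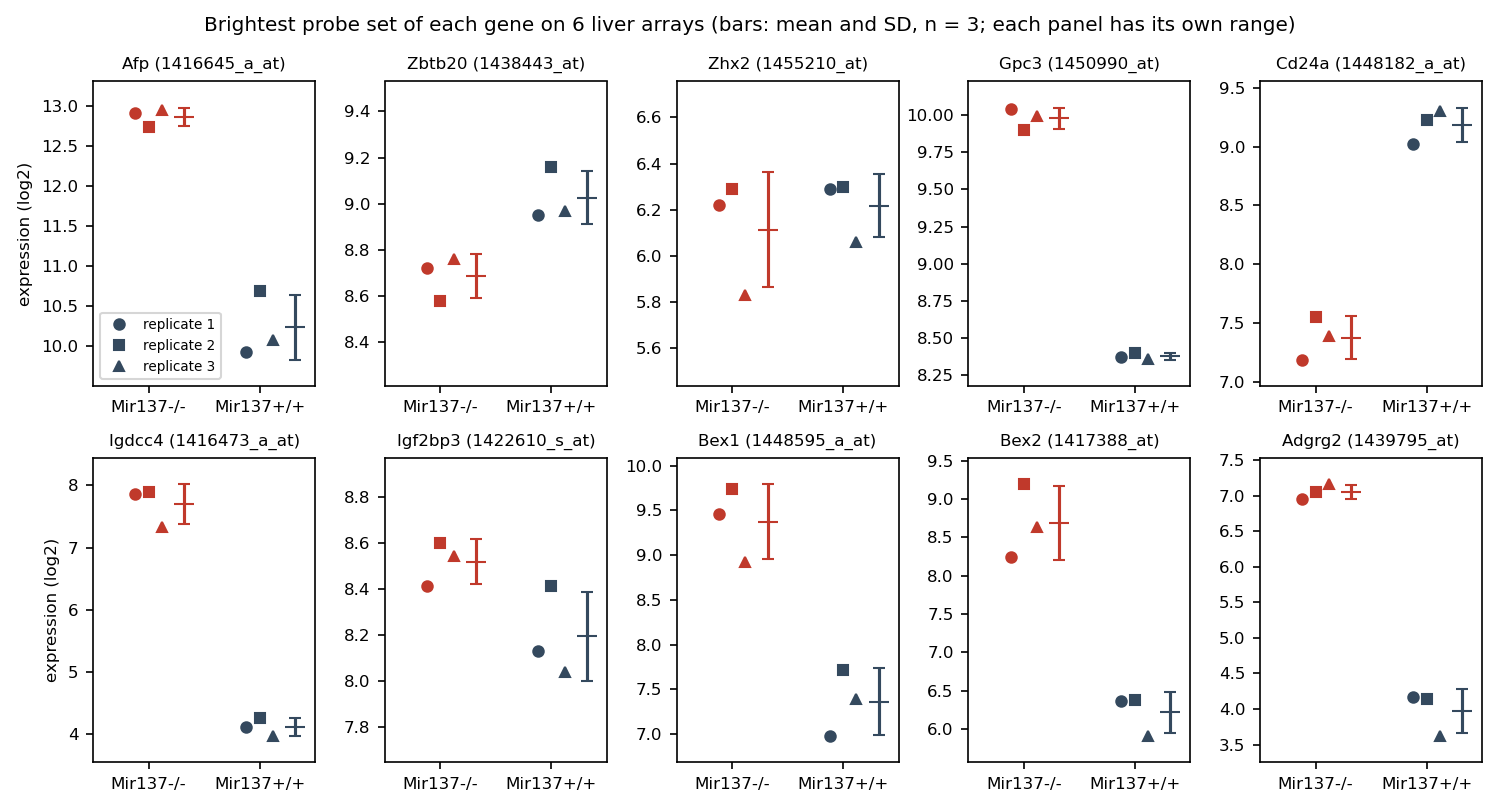
Log2 expression of the brightest probe set of each of the 10 genes on the 6 arrays, Mir137-/- at left in red and Mir137+/+ at right in dark blue, with 1 symbol per replicate and the mean ± SD (n = 3) beside the points. Afp, Gpc3, Igdcc4, Bex1, Bex2 and Adgrg2 lie higher in Mir137-/- with no overlap, Cd24a lies lower, Zbtb20 is lower by 0.34 and Zhx2 overlaps.

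Afp was higher in Mir137-/- liver on its 3 bright probe sets. The brightest probe set (1416645_a_at) read 12.91, 12.74 and 12.95 in Mir137-/- and 9.93, 10.69 and 10.08 in Mir137+/+. The groups did not overlap, the lowest knockout liver lying well above the highest wild type, and the wild types varied more among themselves. It averaged 12.87 ± 0.11 in knockout and 10.23 ± 0.40 in wild-type liver (SD, n = 3 each), a difference of 2.63 (SE 0.19) or 6.21-fold. A higher level in tissue RNA can come from more expressing cells or from more RNA in each, and these cannot be told apart here or for any gene that follows.

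The other Afp probe sets fell into a bright and a dim class. Probe set 1416646_at read 12.80, 12.59 and 12.55 in Mir137-/- and 9.24, 9.84 and 9.43 in Mir137+/+ (difference 3.14, SE 0.16). Probe set 1436879_x_at read 11.19, 10.94 and 11.03 in Mir137-/- and 8.10, 8.87 and 8.46 in Mir137+/+ (difference 2.58, SE 0.18). On all 3 bright probe sets Mir137+/+ replicate 2, an array with Xist and pancreas transcripts, was the highest wild type. The dim ones, 1436881_x_at and 1436880_at, lay below the array median on every array, at 2.77 to 4.52, and their groups overlapped, with differences of 0.41 (SE 0.19) and 0.06 (SE 0.17).

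Neither measured relative of Afp in the albumin family was called. Alb, which encodes serum albumin, differed by -0.04 (SE 0.08, adjusted p = 0.795 in limma over all 18193 genes). Its levels of 13.71 to 13.79 reached the highest value on any array (13.79), so a difference in Alb could be hidden at the top of the scale. Afm, which encodes the vitamin E binding afamin, read 11.16, 10.89 and 11.17 in Mir137-/- and 11.50, 11.47 and 11.49 in Mir137+/+. These did not overlap and lay in the opposite direction to Afp (-0.41, SE 0.10, adjusted p = 0.0359), under the 1.5-fold threshold.

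Zbtb20, the main known repressor of Afp in mouse liver, had 9 probe sets, most of which read slightly lower in Mir137-/-. Its brightest probe set (1438443_at) read 8.72, 8.58 and 8.76 in Mir137-/- and 8.95, 9.16 and 8.97 in Mir137+/+, without overlap (difference -0.34, SE 0.10). Probe set 1437598_at read 8.49, 8.39 and 8.45 in Mir137-/- and 8.80, 8.85 and 8.66 in Mir137+/+ (difference -0.33, SE 0.10). The largest difference was on 1437065_at, which read 6.77, 6.55 and 6.61 in Mir137-/- and 7.08, 7.07 and 7.04 in Mir137+/+ (difference -0.42, SE 0.10). The groups were separate on all 3, although each difference was under 1.5-fold.

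Across the 9 Zbtb20 probe sets, 8 differences were negative and 6 had Mir137-/- entirely below Mir137+/+. That last pattern was seen for 13.9% of all probe sets, and the converse, Mir137-/- entirely above, for 13.6%. The differences ran between -0.42 and 0.08, and the mean of the 9 probe sets differed by -0.22 (SE 0.07). The only positive one, 1443471_at, read 6.78, 6.63 and 6.36 in Mir137-/- and 6.45, 6.77 and 6.30 in Mir137+/+, which overlapped. Probe sets 1439278_at (-0.11) and 1437066_at (-0.13) overlapped as well, while 1422064_a_at (-0.31), 1439128_at (-0.23) and 1451577_at (-0.22) were lower without overlap.

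Zhx2, the other known repressor, listed in the reference table under the older name Afr1, had 1 probe set. It read 6.22, 6.29 and 5.83 in Mir137-/- and 6.29, 6.30 and 6.06 in Mir137+/+. The groups overlapped, with a difference of -0.10 (SE 0.14), and replicate 3 was the lowest array in both genotypes. Without Mir137-/- replicate 3 the difference was 0.04.

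Factors that act on the Afp gene, or are relatives of its repressors, were called at a share near that over all genes. Of 22 measured, 0 was called higher and 1 lower, with a median difference of -0.14. Over all 18193 genes 2.34% were called higher and 3.34% lower, with a median of 0.0033. In 7 of the 22 Mir137-/- lay entirely below Mir137+/+, against 17.4% of all genes. In 3 it lay entirely above, a pattern seen for 13.6% of all probe sets. An unadjusted p below 0.05 in limma was reached by 8. The gene called lower was Cebpb, a leucine zipper factor of the acute-phase response, which read 10.13, 10.45 and 10.05 in Mir137-/- and 10.87, 11.02 and 10.79 in Mir137+/+ (-0.68, SE 0.13, adjusted p = 0.0131). Its relative Cebpa differed by -0.03 (SE 0.09, adjusted p = 0.867) and the Wnt effector Ctnnb1 by -0.06 (SE 0.08, adjusted p = 0.682). A further 3 factors were picked after their values were seen. The relatives of Zhx2, Zhx1 and Zhx3, differed by -0.21 (SE 0.08, adjusted p = 0.130) and -0.19 (SE 0.09, adjusted p = 0.212). Zfhx3, known in human cells to bind AT-rich elements of the Afp gene, read 7.52, 7.58 and 7.39 in Mir137-/- and 6.96, 7.14 and 7.07 in Mir137+/+ (0.44, SE 0.09, adjusted p = 0.0226, under 1.5-fold).

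**Figure D2:**
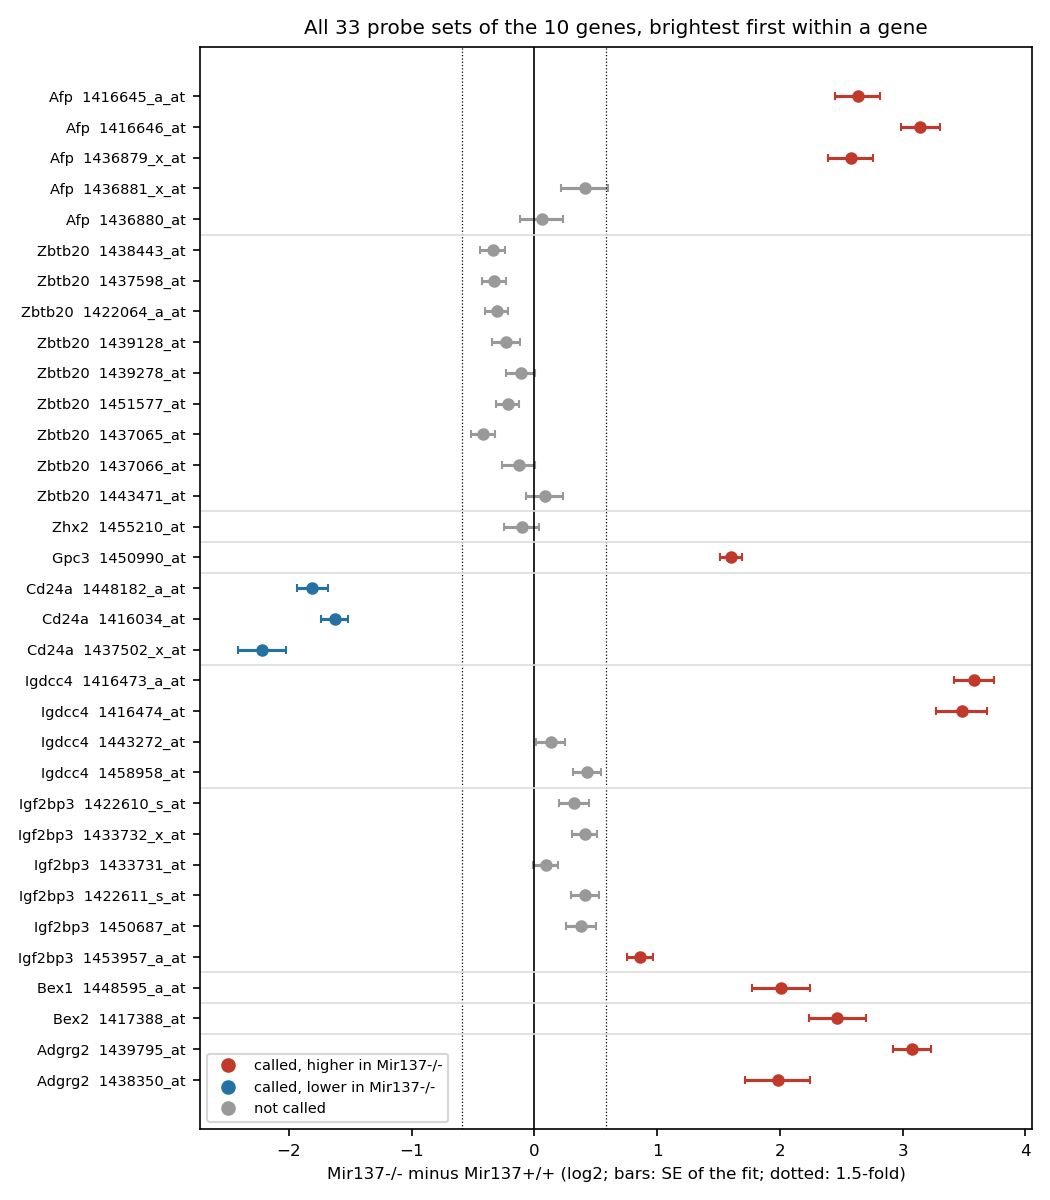
Difference Mir137-/- minus Mir137+/+ (log2, horizontal axis) of each of the 33 probe sets, grouped by gene with the brightest first, with the SE of the fit as bars and dotted lines at 1.5-fold. Red points are called higher in Mir137-/-, blue called lower and grey not called: the 9 Zbtb20 probe sets lie between -0.42 and 0.08, and the dim probe sets of Afp and Igdcc4 lie near 0 beside bright ones above 2.

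Gpc3 encodes glypican 3, a cell surface heparan sulfate proteoglycan and a marker of hepatocellular carcinoma. It read 10.04, 9.90 and 9.99 in Mir137-/- and 8.37, 8.40 and 8.36 in Mir137+/+. Replicates lay close together and the groups far apart, with a difference of 1.60 (SE 0.09) or 3.03-fold. Of its relatives, Gpc4, the gene beside Gpc3 on the X chromosome, read 8.90, 8.73 and 8.71 in Mir137-/- and 9.45, 9.56 and 9.50 in Mir137+/+, and so was lower (-0.72, SE 0.09, adjusted p = 0.00262). Gpc6 was at 0.33 (SE 0.13, adjusted p = 0.135).

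Igdcc4, known as Nope, is an immunoglobulin superfamily receptor that marks hepatic stem and progenitor cells of the mouse fetus. Its brightest probe set (1416473_a_at) read 7.86, 7.90 and 7.33 in Mir137-/- and 4.11, 4.26 and 3.97 in Mir137+/+. Probe set 1416474_at read 7.02, 7.40 and 6.48 in Mir137-/- and 3.66, 3.44 and 3.36 in Mir137+/+. On both, every wild type lay below the array median and every knockout above it, and Mir137-/- replicate 3 was the lowest knockout. The differences were 3.58 (SE 0.16) and 3.48 (SE 0.21), the 2 largest of the set, and 12.0-fold and 11.2-fold as ratios. With wild-type values this low, the fold depends on how the summarization treated background.

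The remaining Igdcc4 probe sets stayed dim in both genotypes. Probe set 1458958_at read 3.95, 4.32 and 4.02 in Mir137-/- and 3.72, 3.66 and 3.62 in Mir137+/+, which was separate but not called (0.43, SE 0.12). Probe set 1443272_at read 4.17, 4.41 and 4.47 in Mir137-/- and 4.37, 4.19 and 4.09 in Mir137+/+, with overlap (0.13, SE 0.12).

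Adgrg2, or Gpr64, is an adhesion receptor best known from the epididymis. Its brighter probe set (1439795_at) read 6.95, 7.05 and 7.16 in Mir137-/- and 4.17, 4.14 and 3.62 in Mir137+/+ (difference 3.08, SE 0.16, 8.44-fold). The dimmer one (1438350_at) read 4.23, 4.11 and 5.26 in Mir137-/- and 2.52, 2.65 and 2.48 in Mir137+/+ (difference 1.98, SE 0.27). Wild types lay below the array median on both, and on the second so did Mir137-/- replicates 1 and 2. Of its relatives, Adgrg1 read 6.93, 6.66 and 6.64 in Mir137-/- and 6.12, 5.87 and 5.83 in Mir137+/+ (0.80, SE 0.12, adjusted p = 0.00566). Adgrg6, a receptor needed for myelination by Schwann cells, was higher by 0.82 (SE 0.18, adjusted p = 0.0248). Its means in Mir137-/- (4.76) and Mir137+/+ (3.94) both lay below the array median, and only Mir137-/- replicate 2 (5.02) lay above it. Without probe sets ending in _s_at, _a_at or _x_at, Adgrg6 was at 0.20 (adjusted p = 0.293), and of the 6 fits that left out 1 array only that without Mir137-/- replicate 3 called it.

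Bex1 and Bex2 are small X-linked proteins first known from brain. Bex1 read 9.46, 9.74 and 8.92 in Mir137-/- and 6.98, 7.72 and 7.39 in Mir137+/+ (difference 2.01, SE 0.24, 4.03-fold). Bex2 read 8.24, 9.19 and 8.63 in Mir137-/- and 6.37, 6.38 and 5.91 in Mir137+/+ (difference 2.47, SE 0.23, 5.53-fold). Neither overlapped, and replicate 2, the array with pancreas transcripts, was the highest of both genotypes for both genes. The relatives Bex3 and Bex4 were higher too. Bex3 read 8.88, 9.05 and 8.76 in Mir137-/- and 7.50, 7.60 and 7.53 in Mir137+/+ (1.35, SE 0.10, adjusted p = 4.09e-04). Bex4 differed by 0.60 (SE 0.14, adjusted p = 0.0312), just past the fold threshold. Bex4 was not called with median centring (0.583) or without the arrays with pancreas transcripts (0.605). Nor was it called without Mir137-/- replicate 1 (0.565) or 2 (0.505), or without Mir137+/+ replicate 1 (0.537) or 3 (0.557). It stayed called without Mir137-/- replicate 3 (0.72) and without Mir137+/+ replicate 2 (0.697).

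The names within the family have shifted. The reference table lists Bex1 as an older name of Bex2, and Bex4 as an older name of Bex1, so a name used here need not be the one used elsewhere. Of 12 neural marker genes, 0 was called in either direction, the median was -0.08, and 11 had both group means below the array median. The list's median deviation from the Mir137+/+ mean was -0.16 to 0.09 in Mir137-/- and -0.11 to 0.09 in Mir137+/+.

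Igf2bp3 is an oncofetal RNA-binding protein that binds Igf2 and other transcripts. All 6 of its probe sets had positive differences, 4 of them without overlap, and 1 was called. Over all probe sets, 13.6% had Mir137-/- entirely above Mir137+/+ and 1.94% were called higher. The called one (1453957_a_at) read 6.91, 6.85 and 6.74 in Mir137-/- and 6.13, 5.90 and 5.88 in Mir137+/+ (difference 0.86, SE 0.11). The brightest (1422610_s_at) read 8.41, 8.60 and 8.54 in Mir137-/- and 8.13, 8.41 and 8.04 in Mir137+/+, where Mir137-/- replicate 1 tied with Mir137+/+ replicate 2 (difference 0.32, SE 0.12). The other 4 differed by 0.09 to 0.41. The ligand transcript Igf2 itself read 12.38, 11.71 and 12.20 in Mir137-/- and 11.93, 12.38 and 12.07 in Mir137+/+, and overlapped (-0.03, SE 0.19, adjusted p = 0.943).

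Cd24a went the other way. It encodes a small, heavily glycosylated surface protein of haematopoietic precursors, B cell precursors among them, and of fetal hepatic progenitors. Probe set 1448182_a_at read 7.19, 7.55 and 7.39 in Mir137-/- and 9.02, 9.23 and 9.30 in Mir137+/+ (difference -1.81, SE 0.13). Probe set 1416034_at read 6.26, 6.55 and 6.42 in Mir137-/- and 8.01, 7.97 and 8.13 in Mir137+/+ (difference -1.63, SE 0.11). Probe set 1437502_x_at read 5.54, 5.72 and 6.27 in Mir137-/- and 7.78, 8.21 and 8.19 in Mir137+/+ (difference -2.22, SE 0.20). All 3 were separate and called lower, and the wild types were 3.50-fold higher on the brightest. Over all probe sets, 13.9% had Mir137-/- entirely below Mir137+/+ and 2.58% were called lower.

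Most markers of B cell precursors moved with Cd24a. Of 10 measured, 0 was called higher and 7 lower, with a median of -0.74 (3.34% of all genes were called lower). Vpreb1, part of the surrogate light chain, read 2.91, 3.08 and 2.88 in Mir137-/- and 4.71, 5.08 and 5.32 in Mir137+/+ (-2.08, SE 0.15, adjusted p = 4.24e-04). Rag1, of the recombinase that joins antigen receptor genes, read 2.44, 3.25 and 2.61 in Mir137-/- and 5.02, 5.54 and 5.57 in Mir137+/+ (-2.61, SE 0.23, adjusted p = 8.66e-04). Both lay below the array median in every Mir137-/- liver. The surrogate light chain gene Igll1 (-1.32, adjusted p = 0.00110) and the B lineage factor Ebf1 (-0.81, adjusted p = 0.00306) fell as well, but Igll1 rests on its probe set: it was at 0.03 and not called without probe sets ending in _s_at, _a_at or _x_at. The Ebf1 means (4.05 in Mir137-/-, 4.86 in Mir137+/+) both lay below the array median. Those not called, picked after their values were seen, were Dntt (-0.52, adjusted p = 0.0133), Rag2 (-0.28, adjusted p = 0.226) and Pax5 (0.16, adjusted p = 0.525).

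The median deviation of the list lay at -0.84 to -0.62 in Mir137-/- and -0.06 to 0.12 in Mir137+/+. The erythroid list had 0 of 11 called and deviations of -0.16 to -0.03 in Mir137-/- and -0.01 to 0.05 in Mir137+/+. The biliary and progenitor list had 1 of 11 called, the keratin Krt23 (0.60, SE 0.09, adjusted p = 0.00537), a median of -0.08, and deviations of -0.04 to 0.01 in Mir137-/- and -0.07 to 0.11 in Mir137+/+. Krt23 lay just past the fold threshold and was not called without Mir137-/- replicate 3 (0.57), without Mir137+/+ replicate 3 (0.56) or without the arrays with Xist (0.62). Which cells carried the Cd24a signal was not tested.

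Other fetal and oncofetal genes rose in part. Of 17 measured, 4 were called higher and 0 lower, and the median was 0.12 (2.34% of all genes were called higher and 3.34% lower, with a median of 0.0033). Peg3, an imprinted zinc finger gene, read 11.42, 11.54 and 11.46 in Mir137-/- and 9.95, 10.18 and 9.90 in Mir137+/+ (1.46, SE 0.10, adjusted p = 3.42e-04). Dlk1, a surface protein of hepatoblasts, read 6.30, 6.78 and 6.01 in Mir137-/- and 5.21, 5.38 and 5.12 in Mir137+/+ (1.13, SE 0.19, adjusted p = 0.00843). The imprinted zinc finger gene Plagl1 was higher by 0.82 (SE 0.10, adjusted p = 0.00276), and Grb10, an imprinted adaptor that restrains insulin and IGF receptors, by 0.63 (SE 0.10, adjusted p = 0.00711). All 4 are known as imprinted genes, as are Igf2, Mest, Cdkn1c and Peg10 of the same list, which were not called. Lpl, a lipase that liver makes mainly before weaning, read 11.87, 11.86 and 11.87 in Mir137-/- and 12.11, 12.09 and 12.04 in Mir137+/+ (-0.21, SE 0.08, adjusted p = 0.121). The choice of probe set mattered: without those ending in _s_at, _a_at or _x_at, Dlk1 differed by 0.01 and Plagl1 by 0.40 (adjusted p = 0.0739), and neither of these was called, while Grb10 had no probe set left. With the mean of a gene's probe sets, Dlk1 and Plagl1 were both at 0.57 and not called.

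Across the relatives of the 10 genes, 4 of 15 measured were called higher (Bex3, Bex4, Adgrg1 and Adgrg6) and 1 lower (Gpc4), with a median of 0.19, beside the same 2.34% and 3.34% of all genes. Of 17 genes of the mature hepatocyte, 0 was called higher and 1 lower, a share near that over all genes. In 12 of the 17 Mir137-/- lay entirely below Mir137+/+, against 17.4% of all genes, and the median was -0.30. An unadjusted p below 0.05 in limma was reached by 9, and with no fold threshold 6 were called lower. The called gene was Cyp1a2, a cytochrome P450 that comes on after birth, at 9.33, 8.60 and 9.19 in Mir137-/- and 10.19, 10.25 and 10.20 in Mir137+/+ (-1.17, SE 0.18, adjusted p = 0.00589). Cyp2e1 (-0.12, SE 0.09, adjusted p = 0.440) and the urea cycle enzyme Cps1 (-0.30, SE 0.12, adjusted p = 0.159) were not called. Of 11 cell cycle genes, 0 was called in either direction, and the median was -0.11. Among the lists with 0 called genes in limma, an unadjusted p below 0.05 was reached by the 6 sex-linked transcripts already given, 1 erythroid gene, 1 neural gene, Afm of the albumin family and 0 genes of the cell cycle, hepatocyte, muscle and pancreas lists.

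**Figure D3:**
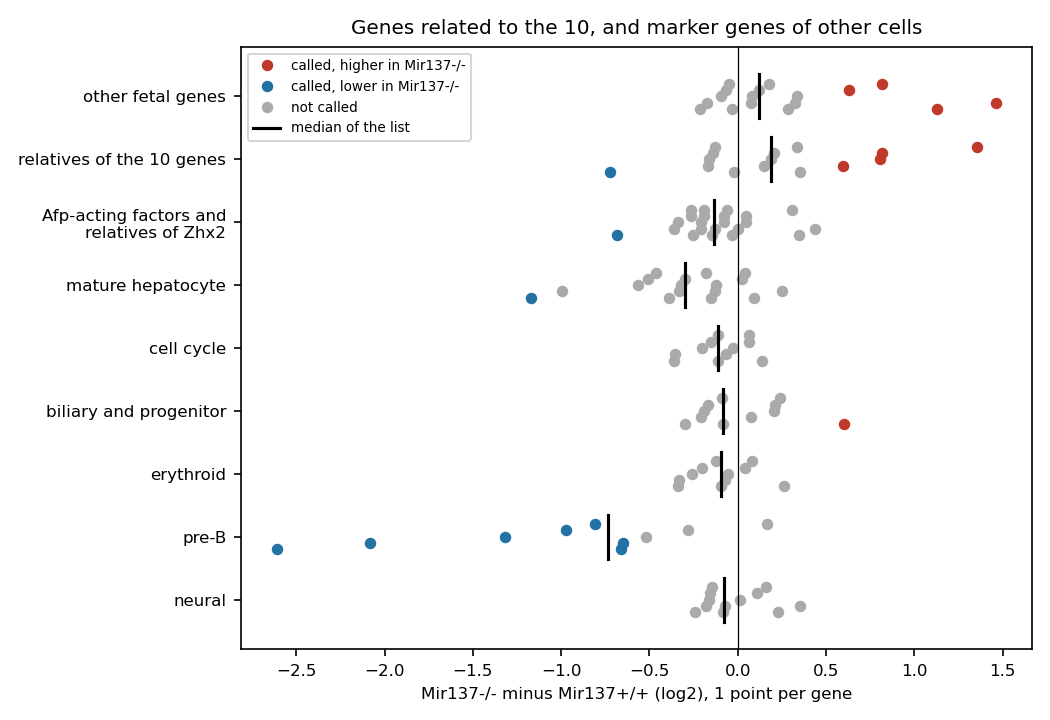
Difference Mir137-/- minus Mir137+/+ (log2, horizontal axis) of each gene of 9 lists, 1 point per gene, red where called higher in Mir137-/-, blue where called lower and grey where not called, with a black line at the median of each list. The 7 blue points of the pre-B list stand apart from the erythroid and neural lists, which have 0 called.

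Of the 10 genes, 4 lie on the X chromosome (Gpc3, Bex1, Bex2 and Adgrg2), and all 4 were higher in Mir137-/-. Over 618 X-linked genes 3.72% were called higher and 3.07% lower. Because the arrays with Xist were both Mir137+/+, each gene was also compared without them, which left Mir137+/+ replicate 1 as the only wild type, assumed to vary like the others. The brightest probe sets then differed by 2.94 for Afp, 1.61 for Gpc3, 2.39 for Bex1, 2.32 for Bex2, 2.88 for Adgrg2, 3.59 for Igdcc4 and -1.64 for Cd24a, and Zbtb20 by -0.26. Calls were lost for Bex2, for Cd24a 1437502_x_at (-1.94), for Adgrg2 1438350_at (2.01) and for Igf2bp3 1453957_a_at (0.70).

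Without the arrays with pancreas transcripts, the brightest probe sets differed by 2.93 for Afp, 1.65 for Gpc3, 2.01 for Bex1, 2.30 for Bex2, 3.16 for Adgrg2, 3.56 for Igdcc4 and -1.87 for Cd24a. Zbtb20 was at -0.22, and Igf2bp3 1453957_a_at (0.82) was no longer called. With the muscle-bearing array, Mir137-/- replicate 1, left out, Afp was at 2.61, Bex2 at 2.69 and Cd24a at -1.71, and the 14 calls all stood.

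**Figure D4:**
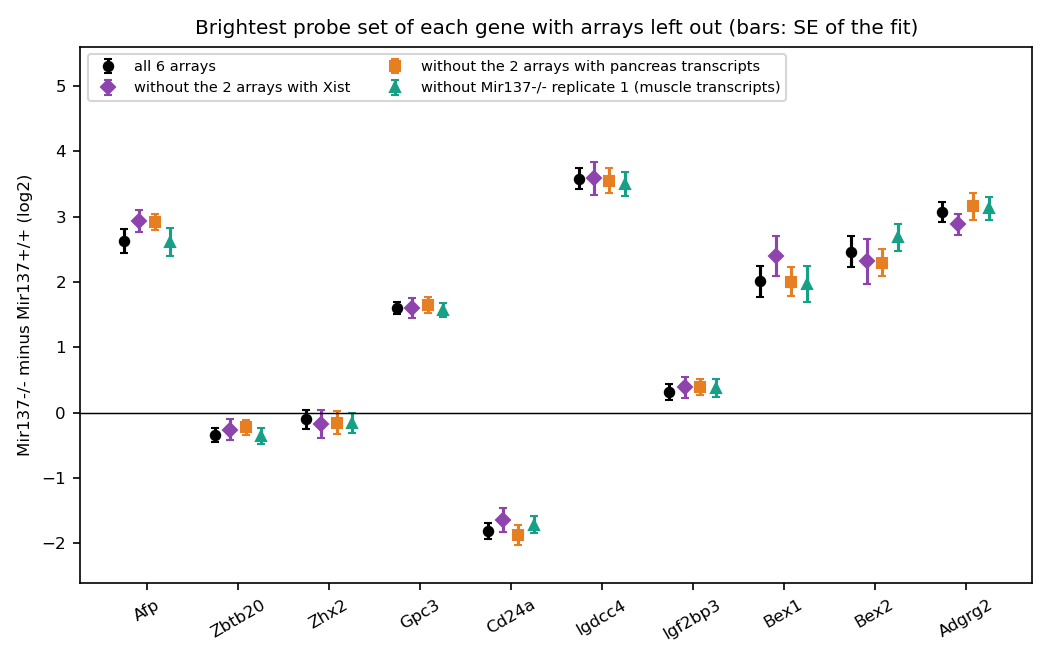
Difference Mir137-/- minus Mir137+/+ (log2, vertical axis) of the brightest probe set of each of the 10 genes, with the SE of the fit as bars, from all 6 arrays (black circles), without the 2 arrays with Xist (purple diamonds), without the 2 arrays with pancreas transcripts (orange squares) and without Mir137-/- replicate 1 (green triangles). At these settings no gene changes direction, and Afp lies between 2.61 and 2.94.

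Over the 6 arrays, the levels of the other genes of the set correlated with the brightest Afp probe set at 0.99 for Gpc3, 0.98 for Igdcc4 and Adgrg2, 0.96 for Bex1, 0.95 for Bex2, 0.86 for Igf2bp3, -0.30 for Zhx2, -0.80 for Zbtb20 and -0.97 for Cd24a. These Pearson values rest on 6 arrays in 2 genotypes, so they mainly restate the differences. When each genotype's mean was first subtracted, the value for Zbtb20 was 0.91, opposite in sign to that over all arrays. Those of the other genes of the set ran between -0.03 (Bex2) and 0.71 (Igf2bp3), with Cd24a at 0.12. Each gene was read by its brightest probe set. On that of Zbtb20, as on that of Afp, Mir137+/+ replicate 2 was the highest wild type (9.16). On Zbtb20 1422064_a_at the highest wild type was replicate 1 (8.35). The other Zbtb20 probe sets were not correlated with Afp. Outside the set, the genes most like Afp were Rprd2 (0.9955), Rbbp7 (0.9948), Inhbb (0.9929), Peg3 (0.9928) and Pdk4 (0.9889), followed by Cirbp, Airn, Cand2, Crat and LOC102631979 (0.9855). Rbbp7 encodes a histone-binding subunit of several chromatin complexes, Inhbb a subunit of activin B, Pdk4 a kinase that inhibits pyruvate dehydrogenase, and Cirbp a cold-inducible RNA-binding protein. Of 650 genes with an SD of at least 0.5 over the arrays, 66 had a correlation with Afp above 0.95, so such a value was common. Rbbp7 read 12.01, 11.95 and 12.08 in Mir137-/- and 10.98, 11.11 and 10.91 in Mir137+/+, and shared with Afp the highest wild-type value on Mir137+/+ replicate 2.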

How the data were processed

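Liver RNA of 6 mice, 3 per genotype, was hybridised to a mouse whole-genome expression array of Affymetrix. The deposited values are log2 probe set levels made by the authors, from 1.22 to 13.79. The labels give GCRMA as the tool; the methods instead describe RMA followed by baseline-to-mean normalization. The deposited log2 values were levels, not centred per probe set, and were used as given. Low values have no stated floor, since detection calls were not used here. For arrays the number of mice limits the precision: a two-sided exact test of 3 against 3 cannot go below 0.1.

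After 64 control probe sets were left out, 45037 were tested. By the platform annotation, 34945 had 1 symbol, 932 several and 9160 none. Symbols were updated by Entrez gene (34741 matched the GRCm38.p6 reference table). Differences were fitted with limma 3.58.1 (lmFit and eBayes, R 4.3.3) without covariates, and p-values were adjusted by Benjamini-Hochberg over all probe sets, or over 18193 genes, each read by its single-symbol probe set with the highest mean. The call required an adjusted p below 0.05 and over 1.5-fold. Tests are two-sided.

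The members, lists and the sex and pancreas alternatives were chosen with earlier results of these data known. Named were all member probe sets, up to 4 called genes with the smallest p per list, at most 2 further genes with the highest level, and the 10 genes most like Afp (SD over the arrays of at least 0.5). Genes marked as picked after their values were seen stand outside this rule. Probe sets ending in _s_at, _a_at or _x_at can share probes with other transcripts or genes. Alternatives were Student's t-test, eBayes with trend and robust, no fold threshold, quantile normalization, median centring, leaving out the 40% dimmest probe sets or those 3 endings, the mean of a gene's probe sets, a replicate block, array weights (statmod 1.5.0), sex read from Xist (over 8) as a term, and arrays left out. The fit was also run on simulated data.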

Additional observations from a re-analysis of the deposited data

How the results depend on the processing

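For the 14 called probe sets of the 10 genes, 244 of 244 values under the alternatives kept their direction and 233 kept their call. Student's t-test did not call Cd24a 1437502_x_at, Adgrg2 1438350_at or the only probe sets of Bex1 and Bex2. Leaving out each array in turn gave 11 to 11 higher and 3 to 3 lower. With the replicate block, 11 were called higher and 3 lower; same-numbered arrays share only a number, their deviations correlating at 0.10, 0.23 and 0.03, with 2 of 3 closest to their own number. Without probe sets ending in _s_at, _a_at or _x_at, 6 member probe sets were called higher and 1 lower of those left, Bex1 having none left. Other fetal genes then had 1 of 16 higher, relatives 1 of 13 higher, and Igll1 was at 0.03. Grb10, Bex3 and Adgrg1 had no probe set left at this setting, so their calls were not tried. With sex as a term, and likewise without the arrays with Xist, which both rest on Mir137+/+ replicate 1 alone, other fetal genes had 1 higher, factors acting on Afp 0 lower, relatives 1 higher and 0 lower; mature hepatocyte genes had 0 lower without these arrays, and the pre-B list 3 lower with the term and 1 without the arrays, at a median of -0.70 in both, Rag1 being at -2.25 and Vpreb1 at -1.75. The biliary list then had 0 called, as it did without replicate 3 of either genotype; the cell cycle list had 1 lower without Mir137-/- replicate 3. Without the arrays with pancreas transcripts, relatives had 1 higher and 0 lower and mature genes 2 lower. With the mean of all probe sets, other fetal genes had 2 higher. With no fold threshold, factors had 1 higher (Zfhx3) and mature genes 6 lower, and Zbtb20 1437065_at passed. Student's t-test gave factors 0 lower, relatives 1 higher, mature genes 0 lower, and 0 in the lists without a call in limma. Leaving out 1 array, factors had 0 to 1 lower (0 without Mir137+/+ replicate 2, Cebpb then being at -0.62), relatives 2 to 4 higher, other fetal genes 3 to 4 higher, and mature genes 1 to 2 lower (2 without Mir137-/- replicate 2). Uncalled probe sets of the 10 genes that changed sign were Zhx2 (-0.19 to 0.04), Afp 1436881_x_at (-0.02 to 0.63) and 1436880_at (-0.24 to 0.21), Zbtb20 1443471_at (-0.02 to 0.22) and Igdcc4 1443272_at (-0.02 to 0.22). Uncalled named genes of the lists that did so were Cebpa (0.013 with quantile normalization, -0.075 to 0.015 leaving out 1 array), Ctnnb1 (0.084 with the mean of probe sets) and Igf2 (0.0047 with array weights, 0.17 with sex as a term or without the arrays with Xist, 0.29 without those with pancreas transcripts, -0.17 to 0.16 leaving out 1 array, 0.28 with the mean of probe sets). Levels below the array median limit the folds of Igdcc4 and Adgrg2.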
